A study of Mus musculus with 4 samples.

Results

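The mineralization and phosphate handling genes examined here are 9 genes that build bone mineral or supply and hold back its phosphate: Alpl, Phospho1, Smpd3, Enpp1, Ank, Panx3, Slc20a1, Slc20a2 and Phex. They were found by symbol in the deposited comparison table, 1 row each, and make up 9 of its 47643 genes. All 9 passed the filter on low values, which asks for 10 or more reads in 2 or more of the 4 libraries and which 17107 genes passed. The table compares TdTomato-positive with TdTomato-negative cells sorted from the periosteum, the cell layer that covers bone, of the mouse femoral shaft, with 2 libraries of each kind. Every animal carried 1 copy of each of 2 alleles, Sox9CreErt2, which makes a tamoxifen-dependent Cre from the Sox9 locus, and the Cre-dependent TdTomato reporter, and every animal was given tamoxifen, so the negative cells share genotype and drug with the positive cells. The dose was 100 µL at 20 mg/mL, injected 3 times at intervals of 48 h, and unfractured femora were collected 2 weeks later. The label marks cells that expressed Sox9 while tamoxifen was present, and their progeny, and says nothing of Sox9 at harvest. About 10000 cells of each kind came from 18 femora of 9 mice in 2 collections, so each library pools animals. The age of the mice is not given in the sources used here.

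Bone mineral is hydroxyapatite, which forms in and around matrix vesicles shed by osteoblasts and by hypertrophic chondrocytes when phosphate is plentiful and inorganic pyrophosphate is scarce. Alkaline phosphatase destroys pyrophosphate outside the cell, PHOSPHO1 frees phosphate inside the vesicle, and the pair ENPP1 and ANK provide extracellular pyrophosphate, which blocks crystal growth. Sodium-phosphate cotransporters carry phosphate into the cell, and PHEX, a peptidase of osteoblasts and osteocytes, restrains the phosphate hormone FGF23. Loss of Alpl, Phospho1 or Phex leaves mouse bone undermineralized, and loss of Enpp1 or Ank mineralizes soft tissue and joints.

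The promoters of 3 genes with opposing roles are shown as examples: Enpp1 and Ank for pyrophosphate supply, and Alpl for its removal. RefSeq (GRCm38.p6) gave 8 promoter windows for 6 of the 9 genes, each of 300 bases, and no window was matched for Smpd3, Panx3 or Slc20a2. Sequences run 5′ to 3′ on the strand of the gene, from 250 bases before its start to 50 after it. Capitals mark the GC box letters GGGCGG or CCGCCC and the Runx letters TGTGGT or ACCACA, both searched on both strands. Alpl is shown at the upstream one of its 2 annotated starts (chr4:137796335-137796634, minus strand), Enpp1 at chr10:24712110-24712409 (minus strand) and Ank at chr15:27466427-27466726 (plus strand).
Alpl: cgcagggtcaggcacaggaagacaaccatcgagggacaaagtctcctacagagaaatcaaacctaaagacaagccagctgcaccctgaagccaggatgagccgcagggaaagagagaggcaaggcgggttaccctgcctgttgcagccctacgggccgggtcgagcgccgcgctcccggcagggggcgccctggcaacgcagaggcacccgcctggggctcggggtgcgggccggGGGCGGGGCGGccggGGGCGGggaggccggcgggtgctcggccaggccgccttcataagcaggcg
Enpp1: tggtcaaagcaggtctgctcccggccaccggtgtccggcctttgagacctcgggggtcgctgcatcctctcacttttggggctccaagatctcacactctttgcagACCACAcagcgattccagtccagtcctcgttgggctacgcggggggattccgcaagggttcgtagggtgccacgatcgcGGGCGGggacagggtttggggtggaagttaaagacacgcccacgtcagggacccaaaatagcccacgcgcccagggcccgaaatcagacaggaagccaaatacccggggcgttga
Ank: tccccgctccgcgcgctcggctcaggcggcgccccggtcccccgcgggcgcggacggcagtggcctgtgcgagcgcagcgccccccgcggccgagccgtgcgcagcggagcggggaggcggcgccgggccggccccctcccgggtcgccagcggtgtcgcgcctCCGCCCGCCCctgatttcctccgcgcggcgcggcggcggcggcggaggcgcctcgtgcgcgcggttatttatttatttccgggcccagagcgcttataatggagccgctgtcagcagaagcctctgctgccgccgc
Of all 32851 RefSeq windows of this length, 35.7% held the GC box letters and 16.8% the Runx letters. Enpp1 held 1 of each. Alpl held 3 GC box matches, 2 of which overlap, and Ank held 2 that overlap, and neither window held the Runx letters. Taking a match in any window of a gene, 5 of the 6 genes held a GC box and 2 held the Runx letters, Enpp1 and Slc20a1. The downstream window of Alpl (chr4:137766426-137766725) held neither. The downstream window of Slc20a1 held 1 GC box and no Runx letters. The shares over all windows are per window, so they are not on the scale of these counts per gene.

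The 4 libraries differed in depth and in the summed levels of cell type markers. Depths implied by the deposited values were 32.0 M and 41.6 M reads in TdTomato-positive cells, against 17.0 M and 74.0 M reads in TdTomato-negative cells, and libraries are named by these depths because the values carry no collection number. The unit used for single libraries is RPKM, reads per kilobase of the gene's genomic span, introns included, scaled to 1 M reads of depth. Taking the closer pairs defined below, levels of 6 osteoblast markers, led by Bglap, summed to 3791 and 1173 RPKM in the positive libraries, and to 367 RPKM in the 17.0 M but 1.26 RPKM in the 74.0 M negative library. The 6 chondrocyte markers, led by Col2a1, summed to 114 and 79.7 RPKM in the positive libraries, against 3.72 and 0.0349 RPKM in the negative ones in the same order. The 7 neutrophil markers summed to 8269 and 5205 RPKM in the positive libraries, against 8566 and 19700.2 RPKM in the negative ones, and all 7 were detected in every library. The order within a group rests on unsettled pairs, and the 2 settled neutrophil markers, Camp and Mmp8, summed to 248 and 1737 RPKM in positive cells and to 811 and 1388 RPKM in negative cells. Bglap was not settled in either group, and its other negative pair was 0.0236 and 471 RPKM, with the 74.0 M library higher. The 2 settled osteoblast markers, Ibsp and Sp7, summed to 60.9 and 5.51 RPKM in positive cells. They summed to 6.69 and 0.0615 RPKM in negative cells. Under the closer pairs and over these 2, the osteoblast sum was lowest in the 74.0 M negative library. So was the chondrocyte sum under the closer pairs, and neutrophil transcripts were present in all 4 libraries. Sox9, whose locus drives the label, had settled levels of 16.4 and 4.51 RPKM for the positive pair and 3.32 and 0.0244 RPKM for the negative pair, and its groups did not overlap. In such bulk libraries fewer cells of a type cannot be told apart from less RNA per cell.

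The table gives a group's 2 values without saying which library each came from. That was settled for Ank, Panx3 and Phex in both groups, and for Alpl, Enpp1, Smpd3 and Slc20a2 in the negative group. Where it was not settled, the pair of values that differs less is given and the other possible pair follows it.

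Among the phosphatases and their vesicle partner, the groups overlapped in all 3 genes. Alpl encodes tissue-nonspecific alkaline phosphatase, the enzyme of osteoblasts and hypertrophic chondrocytes that removes pyrophosphate, and it is also made by mouse neutrophils. Alpl (ENSMUSG00000028766.10, chromosome 4, 137741733 to 137796385, minus strand, mm10) was at 4.60 and 0.966 RPKM in the 32.0 M and 41.6 M positive libraries, or at 0.719 and 6.02 RPKM under the other assignment. It was at 1.24 and 0.189 RPKM in the 17.0 M and 74.0 M negative libraries, from 1150 and 763 reads. The lower positive value lay under the higher negative value either way. Neutrophil markers were detected in all 4 libraries, and the part of neutrophils in the Alpl values was not tested. The closer pair comes to 8038.9464 and 2196.0050 reads, off whole numbers by 0.0536 and 0.0050, and the other pair is off by 0.1938 and 0.4541. In the authors' deposited table the log2 fold of Alpl was 1.81 (p = 0.204, FDR = 1.00). With limma on log2(RPKM + 0.1) it was 1.85 ± 1.15 (SE; adjusted p = 0.626).

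Phospho1 encodes the phosphatase that frees phosphate from phosphocholine and phosphoethanolamine in the vesicle, and in mice it also serves maturing red cells. Phospho1 (ENSMUSG00000050860.6, chromosome 11, 95824499 to 95832141, plus strand) was at 1.46 and 0.138 RPKM in TdTomato-positive cells, against 1.00 and 0.639 RPKM in TdTomato-negative cells. The other pairs were 0.0825 and 1.93 RPKM in TdTomato-positive cells, against 0.0695 and 4.70 RPKM in TdTomato-negative cells. Under every combination the groups overlapped, and under the closer pairs the 74.0 M negative library, with the lowest osteoblast sum, held 361 reads of Phospho1. It was the only one of the 9 genes with a deposited log2 fold below 0, at -0.61 (the authors' deposited table, p = 0.670, FDR = 1.00). The limma fold was -0.57 ± 1.04 (SE; adjusted p = 0.873), and under the closer pairs it turned to 0.79 when the 41.6 M positive library was left out. Fits with a library left out used the closer pairs only, so which library this change rests on is not settled. The gene shares genomic span with Zfp652 on its own strand and with Abi3 on the other, and reads of the 3 cannot be told apart where they overlap, since use of strand in the counting is not given in the sources used here.

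Smpd3 encodes neutral sphingomyelinase 2, a membrane enzyme whose loss in the mouse impairs bone mineralization. Smpd3 (ENSMUSG00000031906.8, chromosome 8, 106252548 to 106337989, minus strand) was at 0.533 and 0.165 RPKM in the positive pair, or at 0.104 and 0.724 RPKM. It was at 0.332 and 0.00843 RPKM in the negative pair, or 482 and 53.3 reads. The 17.0 M negative library thus lay inside the positive range and that of 74.0 M reads far under it. The deposited log2 fold was 0.88 (the authors' deposited table, p = 0.538, FDR = 1.00) and the limma fold 0.92 ± 0.90 (SE; adjusted p = 0.741). Without the 74.0 M negative library the limma fold was -0.08. Smpd3 shares span with Gm26786 on its own strand and with Prmt7 and Gm10629 on the other, so that its reads are likewise uncertain.

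**Figure D1:**
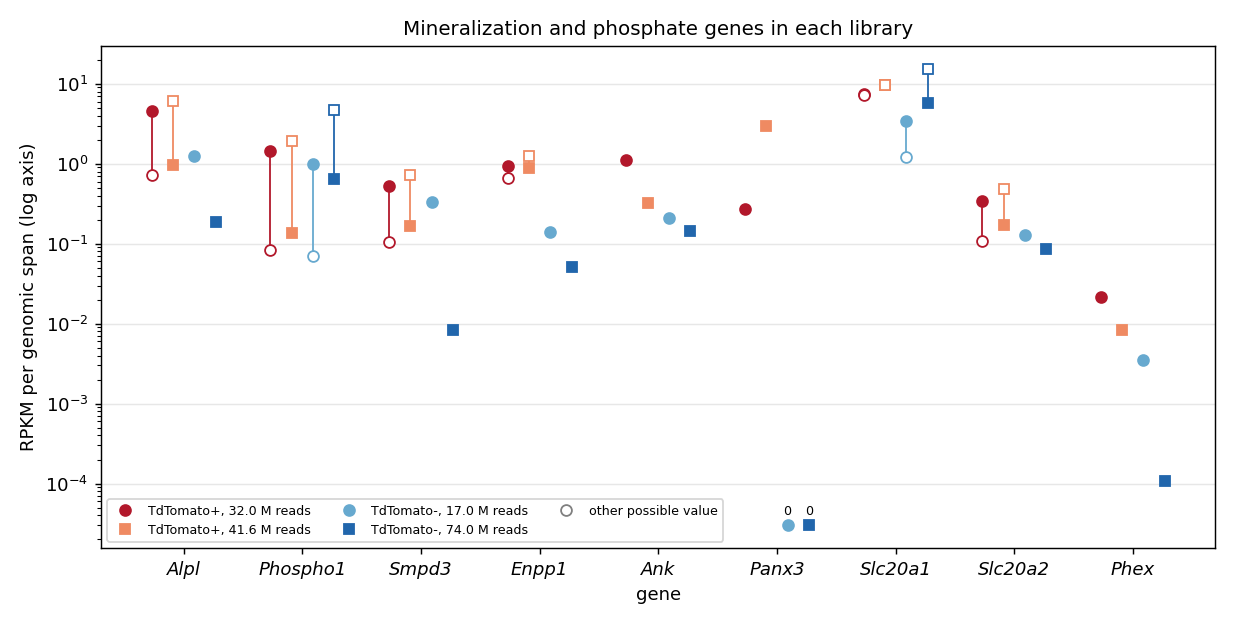
RPKM per genomic span (log axis) of the 9 genes in each of the 4 libraries, TdTomato-positive left of TdTomato-negative. Filled points are the settled values or the closer pair, open points the other possible pair of the same group, and points marked 0 had no reads. Enpp1, Ank, Panx3 and Phex are the 4 genes in which every positive point lies above every negative point.

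In Enpp1, Ank and Panx3, the members that supply pyrophosphate or extracellular ATP, every positive value lay above every negative one, as in 14.2% of the 17107 genes. For Panx3, with no reads in negative cells, passing the filter on reads fixed this. Enpp1 encodes the ectoenzyme that makes pyrophosphate from ATP. Enpp1 (ENSMUSG00000037370.13, chromosome 10, 24637914 to 24712160, minus strand) was at 0.950 and 0.893 RPKM in the positive pair, or at 0.663 and 1.27 RPKM under the other assignment. It was at 0.140 and 0.0510 RPKM in the negative pair, from 176 and 280 reads. Under either assignment the groups did not overlap, and the lowest possible positive value was 4.74 times the highest negative value. The closer pair differs little by the way it was chosen, so the spread of Enpp1 between the positive libraries is not settled.

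The deposited log2 fold of Enpp1 was 2.38 (the authors' deposited table, p = 0.0946, FDR = 1.00). Under the closer pair its limma fold of 2.42 ± 0.40 (SE) had an unadjusted p of 0.00409 in limma and an adjusted p of 0.578. Under the other pair the SE was 0.56 and the unadjusted p in limma was 0.0105, with an adjusted p of 0.807. With each library left out in turn, under the closer pair, the fold stayed between 2.09 and 2.76, positive in all 4 cases. The test over all genes was therefore not passed, and the difference in Enpp1 was larger than the spread within either group.

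Ank encodes a membrane protein that passes ATP or pyrophosphate out of the cell. Ank (ENSMUSG00000022265.6, chromosome 15, 27466677 to 27594910, plus strand) was at 1.13 and 0.323 RPKM in TdTomato-positive cells, against 0.209 and 0.144 RPKM in TdTomato-negative cells, from 4617, 1722, 454 and 1366 reads. The groups did not overlap, with means of 0.725 ± 0.569 RPKM in positive cells and 0.176 ± 0.0457 RPKM in negative cells (SD, n = 2 each), and the difference of the means was smaller than the SD of the positive group. The lower positive value was 1.55 times the higher negative value. The deposited log2 fold was 1.35 (the authors' deposited table, p = 0.345, FDR = 1.00), and the limma fold was 1.39 ± 0.65 (SE; adjusted p = 0.586). The 74.0 M negative library held 0.690 times as much Ank as the other, against 0.152 times as much Alpl and 0.0254 times as much Smpd3.

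Panx3 encodes pannexin 3, a channel of prehypertrophic chondrocytes and osteoblasts that lets ATP out of the cell. Panx3 (ENSMUSG00000011118.3, chromosome 9, 37659902 to 37669223, minus strand) was at 0.269 and 2.94 RPKM in the positive pair, and had 0 reads in both negative libraries. A count of 0 allows up to 0.0190 RPKM in the 17.0 M negative library and 0.00435 RPKM in that of 74.0 M reads, taking 3 reads per library as the limit. Against the higher of these limits, and with the 80 reads taken as counted, the lower positive value was at least 14.2-fold higher. The positive library with more Panx3 was that of 41.6 M reads, with 1141 reads against 80. Of the 3 hypertrophic chondrocyte markers, all settled, Col10a1 was also higher in that library (1.81 against 0.925 RPKM), while Mmp13 (5.46 against 19.4 RPKM) and Ihh (0 against 0.428 RPKM) were lower, and their sum was 7.27 against 20.8 RPKM. Such limits and intervals cover counting error only.

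The deposited log2 fold of Panx3 was 3.36, and this is the 1 gene of the 9 with an unadjusted p under 0.05 (the authors' deposited table, p = 0.0180, FDR = 1.00). Fitted folds of a gene with no reads in 1 group depend on the offset. The limma fold was 3.40 ± 1.13 (SE; adjusted p = 0.578) with 0.1 RPKM added, 1.16 with 1 RPKM added and 6.50 with 0.01 RPKM added. Without the 32.0 M positive library it was 4.93, and without that of 41.6 M reads 1.88.

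**Figure D2:**
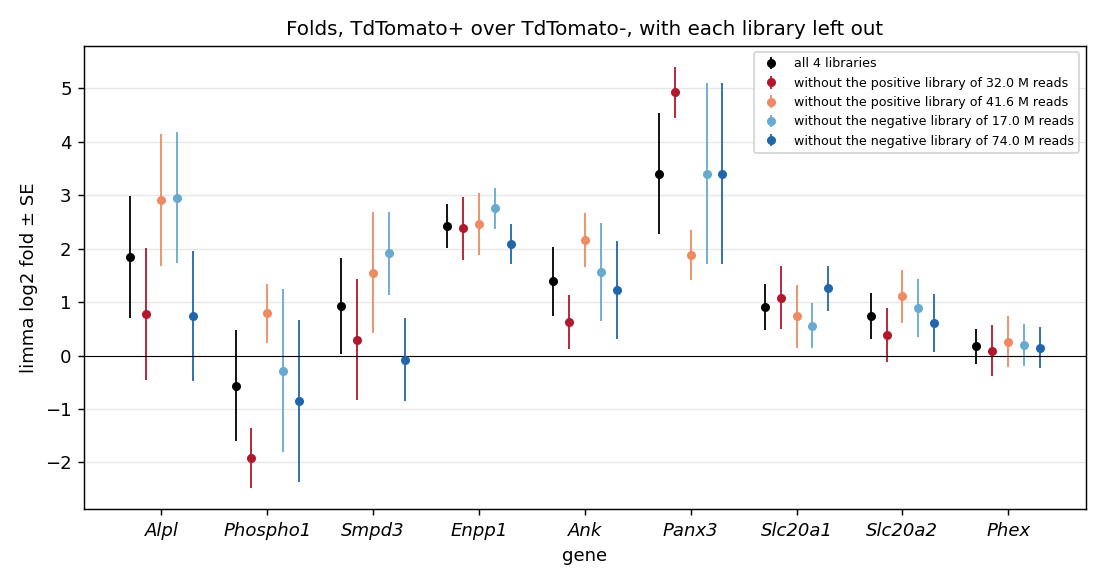
Log2 folds of TdTomato-positive over TdTomato-negative cells from limma on log2(RPKM + 0.1), with their standard errors, for all 4 libraries (black) and with each library left out (colours). Values are the settled ones or the closer pairs. On these, Enpp1 stays between 2.09 and 2.76, Alpl ranges from 0.74 to 2.96, and Phospho1 and Smpd3 cross 0.

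The phosphate transporters were read in every library at levels that differed less between groups. Slc20a1 and Slc20a2 encode the sodium-phosphate cotransporters Pit-1 and Pit-2, which most cells make and which serve as receptors for gammaretroviruses. Slc20a1 (ENSMUSG00000027397.14, chromosome 2, 129198764 to 129211617, plus strand) was at 7.45 and 9.55 RPKM in TdTomato-positive cells, against 3.46 and 5.70 RPKM in TdTomato-negative cells. The other pairs were 7.31 and 9.73 RPKM in positive cells and 1.23 and 15.4 RPKM in negative cells, and with this other negative pair the groups overlapped. Slc20a2 (ENSMUSG00000037656.8, chromosome 8, 22476700 to 22569608, plus strand) was at 0.345 and 0.170 RPKM in the positive pair, or at 0.107 and 0.479 RPKM, and at 0.128 and 0.0870 RPKM in TdTomato-negative cells. For both genes the closer pairs did not overlap and another pair did, so separation of the groups is not settled.

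The deposited log2 folds were 0.87 for Slc20a1 (p = 0.548) and 0.71 for Slc20a2 (p = 0.622), each with an FDR of 1.00 in the authors' deposited table. The limma folds were 0.91 ± 0.43 for Slc20a1 (SE; adjusted p = 0.588) and 0.75 ± 0.43 for Slc20a2 (SE; adjusted p = 0.615). Slc20a1 shares span with 9830144P21Rik and Gm4430 on the other strand. Slc20a2 shares span with Gm17491 on its own strand and with Smim19 on the other.

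Phex had the lowest mean of the 9 genes in positive cells. Phex (ENSMUSG00000057457.11, chromosome X, 157162075 to 157415313, minus strand) had 175 and 88 reads in the positive pair, against 15 and 2 reads in the negative ones. These are 0.0216 and 0.00835 RPKM for the positive pair and 0.00349 and 0.000107 RPKM for the negative pair. The groups did not overlap. Relative to depth, the lower positive library held 2.39 times as much as the 17.0 M negative library (95% interval 1.38 to 4.46). It held 78.3 times as much as that of 74.0 M reads (95% interval 21 to 656). These intervals cover counting error in single libraries only, not the spread between libraries of a group.

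The deposited log2 fold of Phex was only 0.13 (the authors' deposited table, p = 0.927, FDR = 1.00), since an offset of 0.1 RPKM was added to levels that never reached 0.03 RPKM. With limma the fold was 0.17 ± 0.33 (SE; adjusted p = 0.877) at the same offset and 1.05 ± 0.60 (SE; adjusted p = 0.691) at an offset of 0.01 RPKM. The long span of the gene, introns included, lowers its RPKM.

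None of the 9 genes passed the test over all genes, and the 9 leaned to the positive side. At an FDR of 0.05 the authors' deposited table calls 0 of the 9, beside 0.0063% of all listed genes called higher and 0% called lower. At an unadjusted p under 0.05 it holds 1 of the 9, Panx3, which is higher in positive cells, beside 1.58% higher and 0.631% lower among the 17107 genes and 0.598% higher and 0.296% lower among all listed. Limma called 0 of the 9 and 0 genes in all, with 2 of the 9, Panx3 and Enpp1, at an unadjusted p under 0.05 (limma over 17107 genes, of which 1441 had one). Of the 9 genes 8 had a deposited log2 fold above 0, beside 51% of the 17107 genes, and the median was 0.88 against 0.02 over those genes. Panx3, with no reads in negative cells, passed the filter on reads through positive cells alone, so its direction adds no support here.

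Every possible positive value lay above every possible negative value in 4 of the 9 genes, Enpp1, Ank, Panx3 and Phex, beside 14.2% of the 17107 genes. Panx3 passed the filter on reads through its positive libraries alone, which fixed its place in this count. Among the 9540 genes with libraries settled in both groups that share was 21.3%, and Ank, Panx3 and Phex belong to these. In 0 of the 9 genes did both negative libraries lie above both positive ones, beside 9.93% of the 17107 and 15.7% of the settled genes. Without the 17.0 M negative library 7 of the 9 parted in this way, Alpl, Smpd3 and Slc20a2 being added, beside 26.7% of all. Under the closer pairs the 17.0 M library is the negative one with the higher osteoblast sum, whose part in the result was not tested. Of the 9 genes 5 parted without the 32.0 M positive library, 4 without the 41.6 M positive library and 5 without the 74.0 M negative library, beside 22.4%, 29.1% and 32.6% of all in that order. Leaving out a library can only keep or add parted genes, among the 9 and among all. With 2 libraries against 2, an exact permutation test of a single gene cannot go below a two-sided p of 0.333. The labels do not say whether the 2 collections used different mice, so p-values rest on these pooled libraries, whose spread may be technical. The deposited p followed the fold closely and the gene's own spread little. In the authors' deposited table Enpp1 had a log2 fold of 2.38 with p = 0.0946, and Sp7 2.36 with p = 0.0985. Yet the negative pair was 0.140 and 0.0510 RPKM for Enpp1, and 0.746 and 0.0209 RPKM for Sp7. The deposited p of Panx3 likewise largely restates its fold, which depends on the offset.

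**Figure D3:**
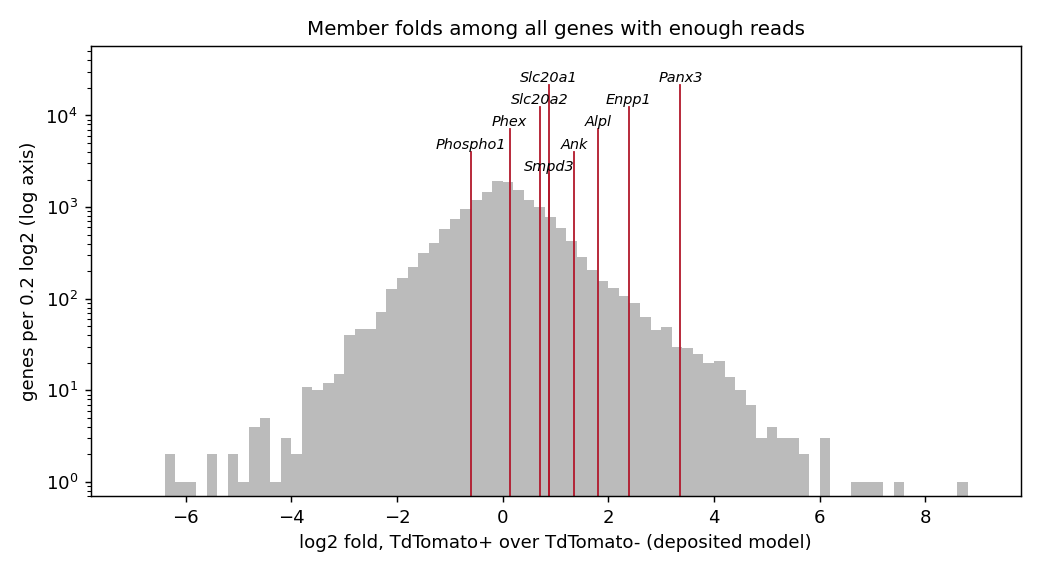
Distribution of the deposited log2 fold, TdTomato-positive over TdTomato-negative cells, over the 17107 genes that passed the filter on reads (log axis of counts), with the 9 genes marked by red lines. Phospho1 is the only member under 0, and Panx3, at 3.36, is the member farthest from it.

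Group levels as the authors' deposited table holds them gave a different picture for the faint genes. The deposited group mean of the signal times the span of the gene was 86.4 in positive and 41.4 in negative cells for Alpl, 27.2 in positive and 37.4 in negative cells for Phospho1, and 13.1 in positive and 13.5 in negative cells for Smpd3. It was 28.4 in positive and 8.08 in negative cells for Enpp1, 24.3 in positive and 10.7 in negative cells for Ank, and 42.3 in positive and 3.62 in negative cells for Panx3. It was 234 in positive and 144 in negative cells for Slc20a1, 10.2 in positive and 7.98 in negative cells for Slc20a2, and 3.21 in positive and 3.72 in negative cells for Phex. On this scale, the mean over libraries of RPKM + 0.1 divided a further time by depth, a gene with no reads stands at 2.77 in positive and 3.62 in negative cells. The 2 floors differ because the shallow negative library weighs most in its mean. The levels of Phex were close to these floors and gave a ratio of 0.861, although its reads relative to depth were higher in both positive libraries. The ratio of Smpd3 was 0.973, where the log2 fold from the mean of logs was 0.88.

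Levels of different genes can be compared only per length, and for that the reads were divided by the exon length of each gene in GENCODE M21, on the assumption that the counted reads fall in exons. Per exon length, Alpl led in positive cells at 62.4 and 13.1 RPKM, followed by Ank at 40.0 and 11.5 RPKM and Slc20a1 at 17.2 and 22.0 RPKM. The ranges of these 3 overlapped, so their order is not settled. Enpp1 followed at 6.88 and 6.46 RPKM, Smpd3 at 8.71 and 2.70 RPKM, Panx3 at 0.729 and 7.99 RPKM, Slc20a2 at 5.16 and 2.54 RPKM and Phospho1 at 5.49 and 0.519 RPKM, again with overlapping ranges. Phex had the lowest mean, at 0.871 and 0.336 RPKM, in a range that overlapped those of Panx3 and Phospho1.

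In negative cells the highest mean exonic level, under the closer pairs, was that of Slc20a1, at 7.97 and 13.1 RPKM, then Alpl at 16.8 and 2.56 RPKM and Ank at 7.41 and 5.11 RPKM. The range of Alpl overlapped both others, and Slc20a1 lay above Ank in its closer pair only. Phospho1 was at 3.77 and 2.41 RPKM in its closer pair, which is not settled, and Enpp1 was at 1.01 and 0.369 RPKM. The exonic level of Alpl over that of Enpp1 was 9.07 and 2.03 in the positive libraries, against 16.6 and 6.93 in the negative ones, under the closer pairs. That ratio needs no offset or depth, and its groups overlapped.

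**Figure D4:**
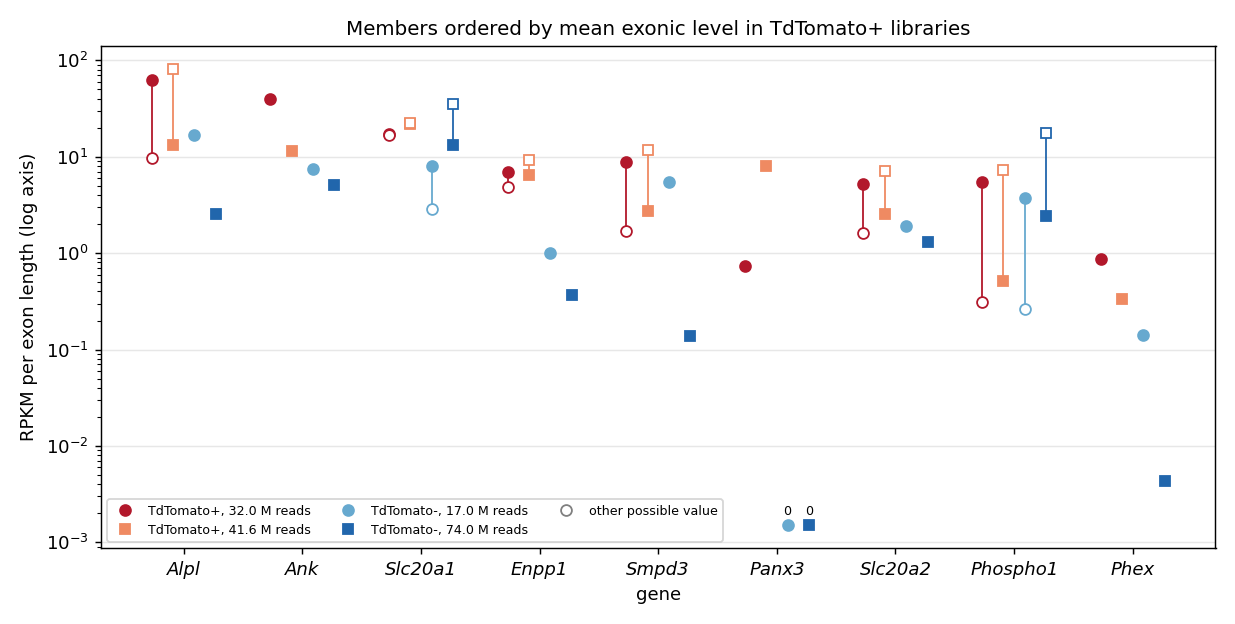
RPKM per exon length (log axis) of the 9 genes in each library, ordered from left to right by the mean of the TdTomato-positive libraries. Symbols are as in the plot by genomic span. Alpl, Ank and Slc20a1 have the highest means in positive cells and Phex the lowest; the range of Phex overlaps those of Panx3 and Phospho1.

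The genes with the pattern most like that of a member over the 4 libraries were sought for the 3 settled members by Euclidean distance on centred log2(RPKM + 0.1). For Ank they were Creld1 (distance 0.103), Shisa2 (0.152) and the pseudogene Rps27-ps1 (0.174), which had 25 reads at most in a library and may share reads with its parent gene. Creld1 was at 2.44 and 0.711 RPKM in TdTomato-positive cells, against 0.504 and 0.359 RPKM in TdTomato-negative cells. For Panx3 they were Matn3 (0.577), which encodes the cartilage protein matrilin 3, Dkk1 (0.685), a secreted Wnt inhibitor, and Gm37304 (1.05). Matn3 had 291 and 4036 reads in the positive pair and 31 and 0 reads in the negative ones, and Dkk1 had 23 and 254 reads in positive cells and 0 in both negative libraries. Like Panx3, both were far higher in the 41.6 M positive library than in the other. For Phex the nearest were Stx8, Rbm20 and Gm5106, at distances up to 0.0363, which the offset makes small for any gene this faint. With 4 points such likeness is a description only.

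Other genes of mineral and phosphate handling were counted from a list of 45, of which 33 had enough reads. Of these 33 the deposited log2 fold was above 0 in 23 and below 0 in 10, with a median of 0.42 beside 0.02 over all 17107 genes. At an FDR of 0.05 the authors' deposited table calls 0 of the 33, and at an unadjusted p under 0.05 it holds 5, all higher in positive cells, and 0 lower, beside 1.58% higher and 0.631% lower among the 17107 genes. The groups parted in 9 of the 33 with positive cells higher and in 4 with negative cells higher, beside 14.2% and 9.93% of all genes.

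The genes of vesicles and mineral-binding proteins had the highest median of the 4 roles. All 6 with enough reads had a log2 fold above 0, with a median of 2.38, and 3 had an unadjusted p under 0.05. Mgp, which encodes a matrix protein that inhibits calcification, was at 200.3 and 86.7 RPKM in TdTomato-positive cells (or 66.6 and 261 RPKM), against 36.7 and 0.0957 RPKM in TdTomato-negative cells, with a log2 fold of 5.58 (the authors' deposited table, FDR = 0.448). Ibsp, which encodes bone sialoprotein, was at 58.1 and 4.65 RPKM in positive cells and at 5.94 and 0.0407 RPKM in negative cells, with overlapping groups and a log2 fold of 4.13 (the authors' deposited table, FDR = 1.00). Spp1, which encodes osteopontin, had a log2 fold of 3.41, while the annexins of the vesicle were nearer 0, at 0.23 for Anxa2, 1.35 for Anxa5 and 0.42 for Anxa6.

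Among the hormones and suppliers of phosphate and pyrophosphate, 7 of 12 lay above 0 and 5 below, with a median of 0.85. Dmp1, an osteocyte matrix protein whose loss raises FGF23 in mice, was at 3.46 and 4.74 RPKM in TdTomato-positive cells, against 0.800 and 0 RPKM in TdTomato-negative cells, with a log2 fold of 3.75 (the authors' deposited table, p = 0.00864). Sfrp4, a secreted Wnt antagonist with a proposed phosphate-wasting role, was at 34.3 and 5.75 RPKM in positive cells and at 12.8 and 0.0770 RPKM in negative cells, with overlapping groups and a log2 fold of 3.19 (the authors' deposited table, p = 0.0271). Fgf23 itself had 3 reads in the 32.0 M positive library and 0 in the other 3 libraries, and was not among the genes with enough reads.

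Paralogs of the members and the zinc transporters lay on both sides of 0. Of 12 paralogs with enough reads 8 lay above 0 and 4 below, with a median of 0.27 and 0 at an unadjusted p under 0.05 in the authors' deposited table. Enpp2, which encodes the lysophospholipase autotaxin, had the largest positive log2 fold, 1.74, and was at 1.21 and 0.488 RPKM in TdTomato-positive cells, against 0.520 and 0.00516 RPKM in TdTomato-negative cells. Smpd4, a neutral sphingomyelinase, had the largest negative one, -1.53. The intestinal and placental relatives of Alpl (Alpi, Alppl2 and Akp3) had 4 reads in all. The sodium-phosphate cotransporters Slc34a1, Slc34a2 and Slc34a3 had at most 40 reads in a library. Of the 3 zinc transporters that load alkaline phosphatase, Slc30a5 had a log2 fold of -0.88, Slc30a6 of 0.03 and Slc30a7 of 0.01.

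**Figure D5:**
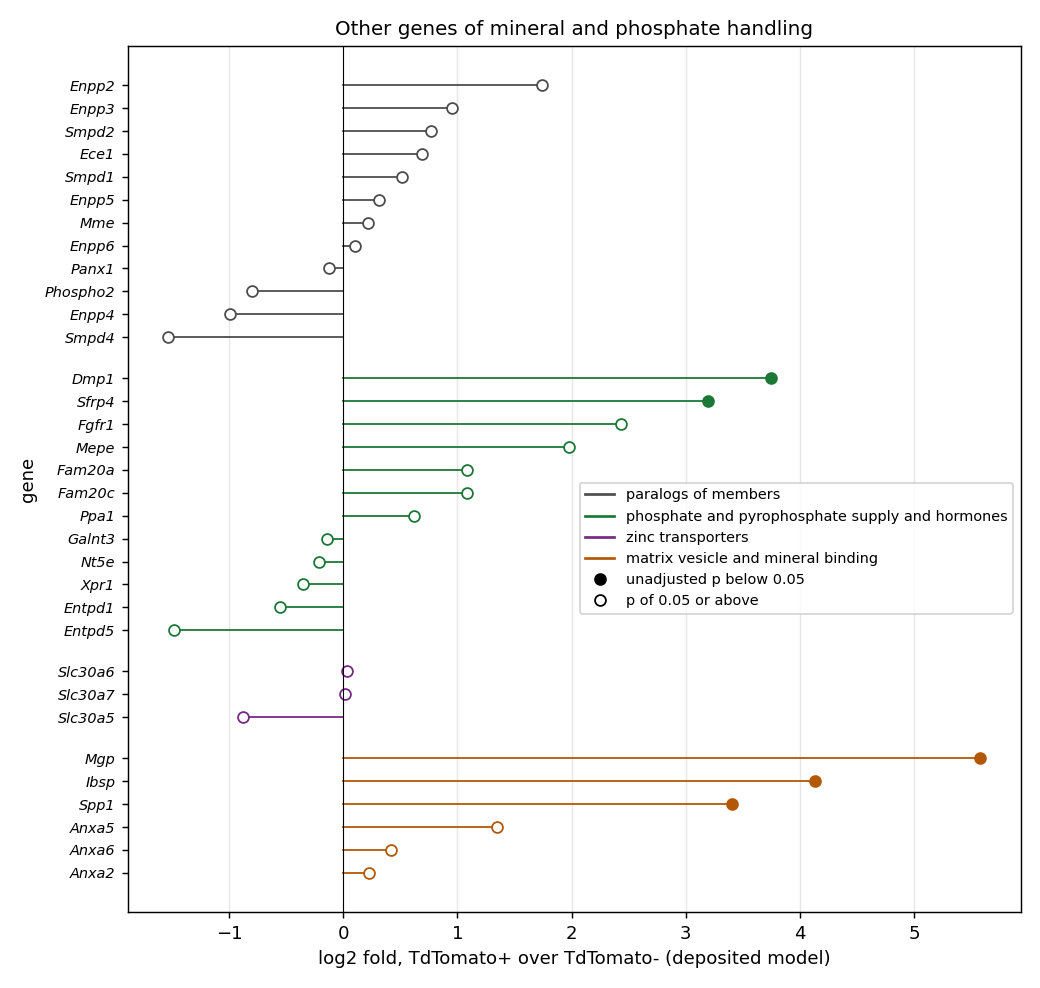
Deposited log2 fold, TdTomato-positive over TdTomato-negative cells, of 33 further genes of mineral and phosphate handling, grouped by role. Filled points have an unadjusted p under 0.05, and they are Dmp1, Sfrp4, Mgp, Ibsp and Spp1.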

How the data were processed

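RNA of TdTomato-positive and TdTomato-negative periosteal cells was sequenced in 4 libraries, and STAR and Partek were used with mm10, per the submitters' processing notes. No version of either is stated there. The deposited table holds group means and the highest library value (headed as raw reads, but fractional) as a signal, the difference of means on the natural log scale, a ratio of group means and scores (a signed fold and the Akaike criterion). The authors' deposited p-value and step-up FDR, computed by Partek on a shrunken lognormal model according to the header, were the main test, two-sided at an FDR of 0.05, with a p under 0.05 given beside it.

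With 2 libraries a group, the deposited signal means, maximum and log difference gave exactly 1 set of 4 library values for each of 47643 genes. Genes without reads gave the depths and an offset of 0.1 RPKM. This scale is inferred from the values and stated in no header. Values of a group were assigned to libraries where 1 assignment alone gave whole reads, within 0.01 reads plus 1e-07 of the reads, or where the other gave negative reads. Both groups were settled in 9540 (55.8%) of the 17107 genes that had 10 or more reads in 2 or more libraries. For the others the pair that differs less entered limma 3.58.1 (R 4.3.3), fitted on log2(RPKM + 0.1) with Benjamini-Hochberg adjustment over those genes. This choice makes the spread within a group smaller than the other pair would, and so lowers the SE and p of unsettled genes. The recovery and the fit were tested on simulated data in which libraries of a group differed little. Real libraries could differ far more, as for Smpd3 in negative cells, so that test does not cover error rates here. The deposited fold carries a constant depth shift of -0.04 log2 against limma.

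Exon lengths came from GENCODE M21, which matched 47224 gene IDs. Promoter sequences are RefSeq's. Named genes were the 9 members, the 2 with the largest absolute fold per role in the further list, leading markers and the 3 genes nearest each settled member, and others were named after their values were seen. The members, lists and tests were chosen with earlier results of these data known. Alternatives were other offsets, no read filter, group-level ratios, the other assignment, each library left out, each possible pairing by collection and an unadjusted threshold. The erythroid marker list is not reported here.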

Additional observations from a re-analysis of the deposited data

How the results depend on the processing

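Of 97 alternative folds of the 9 genes, 93 kept the direction, and in the 88 with an adjusted p, all from limma, it ran from 0.344 to 1.00. Many of the 93 could not have reversed. Dropping the read filter, swapping a pair or adding a replicate block leaves the group means of logs, and so the limma fold, unchanged. The limma fold itself differs from the deposited one only by the constant depth shift. Only other offsets, group-level ratios and leaving out a library could change a direction. Over all alternatives the fold of Enpp1 ran from 0.81 to 3.29 and that of Ank from 0.51 to 2.16. The 4 that reversed were Phospho1 at 0.79 without the 41.6 M positive library, Smpd3 at -0.08 when the 74.0 M negative library was dropped, and, as ratios of the group levels, Smpd3 at -0.04 and Phex at -0.22; the cause was not tested. With each library left out the log2 fold ran from 0.74 to 2.96 for Alpl, -1.92 to 0.79 for Phospho1, -0.08 to 1.92 for Smpd3, 2.09 to 2.76 for Enpp1, 0.62 to 2.16 for Ank, 1.88 to 4.93 for Panx3, 0.56 to 1.26 for Slc20a1, 0.38 to 1.11 for Slc20a2 and 0.09 to 0.26 for Phex. The number of the 9 genes called was 0 under every limma setting and 1 at an unadjusted p under 0.05. In the whole table it was 3 with the authors' test, 426 at an unadjusted p under 0.05 and 0 under every limma setting, including each library left out (0 to 0), with 1441 genes at an unadjusted p under 0.05 in limma. That count was 842 with the other assignment of positive values, 427 with that of negative values and 349 with that of both groups. Leaving out a library leaves 1 in its group, which is assumed to vary as the other group does. Where a pair was not settled these fits used the closer pair. Folds without a given library of such a pair are therefore not settled. The number of the 9 genes whose groups parted, an alternative chosen after seeing the data, ran from 4 to 7 with a library left out. It was 7 without the 17.0 M negative one, and the share of all genes ran from 22.4% to 32.6%. Leaving out a library can only keep or add parted genes, so this number could not fall below 4. The number with a fold above 0 ran from 7 to 9.

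GEO’s labels pair libraries by collection but the values do not say which belong together. With a replicate block for each of the 2 possible pairings, on the 9540 settled genes, limma called 0 genes. A balanced block cannot move a fold, so those of Ank (1.39), Panx3 (3.40) and Phex (0.17) were bound to stay. Only their SE and p could change. The adjusted p of Panx3 was 0.374 with 1 pairing and 1.00 with the other. In negative cells Phex rests on 15 and 2 reads and Panx3 on 0 and 0.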
